A study of Mus musculus with 4 samples.

Results

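The genes described are the lactate dehydrogenase genes Ldha and Ldhb, the lactate transporter genes Slc16a1 and Slc16a3, and Bsg, the chaperone of these transporters. All 5 were found by symbol in the deposited table of 11502 genes, with 21 of its 25889 transcripts. They are a functional group chosen by role after earlier results of these data were known, among them the higher transcript values of Ldha and Ldhb with PGC-1α, so those values are given here as a description. RNA-Seq was performed on HT-22, a mouse cell line that was immortalized from hippocampal neurons, with 1 library in each of 4 groups. The groups were cells with negative control lentivirus, labelled wild type (Ctrl), cells with lentivirus overexpressing PGC-1α (PGC-1α), and both kinds of cells following deprivation of oxygen and glucose (OGD, groups Ctrl+OGD and PGC-1α+OGD). All cells were selected with puromycin. OGD lasted 2 h under nitrogen and carbon dioxide in medium without serum and glucose, and RNA was taken after a further 24 h in normal medium. The libraries thus show the state after recovery and not that during deprivation. With 1 library per group, no difference has a replicate check, no spread can be given, and no p value was computed. The effect of PGC-1α is given as PGC-1α vs Ctrl (without OGD) and as PGC-1α+OGD vs Ctrl+OGD (after OGD), which share no library. The effect of OGD is given in control cells and in PGC-1α cells, and each of these comparisons shares 1 library with each PGC-1α comparison.

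Lactate dehydrogenase interconverts pyruvate and lactate and at the same time NADH and NAD. The enzyme is a tetramer of subunits encoded by Ldha and Ldhb. Tetramers rich in the Ldha subunit prevail in glycolytic tissues, whereas those rich in the Ldhb subunit prevail in oxidative tissues such as heart. Lactate crosses the plasma membrane together with a proton through monocarboxylate transporters, MCT1 from Slc16a1 and the export-prone MCT4 from Slc16a3, both of which need basigin from Bsg to reach the membrane. Ldha and Slc16a3 are textbook targets of hypoxia-inducible factor, and PGC-1α is known to raise Ldhb in muscle. In the brain, MCT1 is typical of glia and endothelium, MCT4 of astrocytes, and MCT2 from Slc16a7 of neurons.

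The deposited values were taken as FPKM, a fragment count scaled to transcript length and to the mapped fragments of the library, because the table names no unit. The value of a gene is the sum of its deposited transcripts, and a level refers to this sum unless a transcript is named. Log2 fold changes are given on the scale of log2(FPKM + 1), where changes of low genes come out too small. A difference was counted at 1.5-fold or more on this scale, which is 0.585 in log2 units, among the 10604 genes that averaged 1 FPKM or more in the 4 libraries. The reads behind a value are unknown, so its counting error cannot be given. Column totals were between 331892 and 353381 FPKM. Ppargc1a, the overexpressed gene, was at 0.900 FPKM in control cells and 35.1 FPKM with PGC-1α, and after OGD 0.103 FPKM in control cells and 8.41 FPKM with PGC-1α. Its level with PGC-1α was thus lower after OGD than without OGD, and reads of the lentivirus and of the cell's own gene cannot be told apart. Of 12 neuronal markers, only Eno2 was listed, at 0.410 to 2.81 FPKM, and Rbfox3, Map2, Tubb3 and Snap25 were absent from the table. Of 4 fibroblast markers all were listed, with a summed level of 412 to 486 FPKM that came mostly from Col1a1 and Col1a2. The defining markers of the labelled cell type were thus not among the listed transcripts. Fewer cells of a kind and less RNA per cell cannot be told apart in such bulk samples.

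The members lie on separate chromosomes of GRCm38. Ldha (ENSMUSG00000063229) extends from 46841475 to 46855627 on the plus strand of chromosome 7, and Ldhb (ENSMUSG00000030246) from 142490249 to 142507957 on the minus strand of chromosome 6. Slc16a1 (ENSMUSG00000032902) occupies 104638668 to 104658462 of chromosome 3, Slc16a3 (ENSMUSG00000025161) 120948480 to 120960868 of chromosome 11, and Bsg (ENSMUSG00000023175) 79704491 to 79711969 of chromosome 10, all on the plus strand. Most of the Ldha value lay in annotated transcripts from an upstream and a downstream start. The start regions of both and that of Ldhb are shown to place the transcripts described next. They are windows of 300 bases from RefSeq on GRCm38.p6, 5′ to 3′ on the strand of the gene, each with a transcription start near its end. Capitals mark ACGTG and GCGTG, the cores bound by hypoxia-inducible factor, and TGACGTCA, the full site of CREB, on either strand. The upstream Ldha window is chr7:46845554-46845853 on the plus strand, the downstream one chr7:46846832-46847131 on the plus strand, and that of Ldhb chr6:142507908-142508207 on the minus strand.
Ldha upstream: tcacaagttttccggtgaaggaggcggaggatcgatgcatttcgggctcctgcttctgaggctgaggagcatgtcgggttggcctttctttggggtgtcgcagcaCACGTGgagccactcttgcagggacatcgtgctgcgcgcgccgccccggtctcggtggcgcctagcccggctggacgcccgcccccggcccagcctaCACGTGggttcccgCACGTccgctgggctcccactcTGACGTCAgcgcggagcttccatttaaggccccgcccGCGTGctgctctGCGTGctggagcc
Ldha downstream: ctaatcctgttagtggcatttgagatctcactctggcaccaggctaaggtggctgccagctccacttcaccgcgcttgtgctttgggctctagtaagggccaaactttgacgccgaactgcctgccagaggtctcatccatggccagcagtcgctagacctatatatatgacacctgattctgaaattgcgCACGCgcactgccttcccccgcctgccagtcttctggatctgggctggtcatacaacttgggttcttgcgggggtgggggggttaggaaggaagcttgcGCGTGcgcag
Ldhb: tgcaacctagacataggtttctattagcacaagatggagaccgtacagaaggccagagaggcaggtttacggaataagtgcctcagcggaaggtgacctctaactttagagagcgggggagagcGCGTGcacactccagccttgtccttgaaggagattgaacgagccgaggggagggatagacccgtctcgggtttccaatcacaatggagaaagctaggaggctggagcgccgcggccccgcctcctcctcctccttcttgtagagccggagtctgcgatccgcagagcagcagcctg
The upstream Ldha window held ACGTG at 5 positions, with CACGTG counted on both strands, GCGTG at 2 and TGACGTCA at 1. The downstream Ldha window held GCGTG at 2 positions, the Ldhb window held it at 1, and neither held ACGTG or TGACGTCA. Among all 32851 windows of the RefSeq table, 19.6% held ACGTG, 32.4% GCGTG and 1.79% TGACGTCA. The Slc16a1 window held ACGTG at 3 positions and GCGTG at 2, and the Slc16a3 window held ACGTG at 2. AAGGTCA, the half-site of the estrogen-related receptors with which PGC-1α cooperates, was found in 4.72% of all windows and in none of those of Ldha, Ldhb, Slc16a1 and Slc16a3. These matches describe letters in the windows and are not evidence of binding.

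Ldhb, whose subunit prevails in oxidative tissues, was higher in both libraries with PGC-1α. Its summed level was 24.0 FPKM in control cells and 69.7 FPKM with PGC-1α, and after OGD 23.3 FPKM in control cells and 51.9 FPKM with PGC-1α. Both PGC-1α libraries lay above both Ctrl libraries, whether or not the cells had been deprived. The log2 fold change with PGC-1α was 1.5 without OGD and 1.12 after OGD. On the FPKM scale these were 2.90-fold and 2.23-fold. OGD made little difference in control cells (log2 fold change -0.04), and the PGC-1α library with OGD was lower than that without it (-0.42), which is short of 1.5-fold. Of the 3 deposited Ldhb transcripts, the full-length Ldhb-201 with 334 codons (stop not included) held 92.6% to 94.0% of the sum in every library. Its own log2 fold changes with PGC-1α were 1.51 and 1.13. Ldhb-202 and Ldhb-204, both annotated without a complete start, stayed at or below 3.24 FPKM. The values of Ldhb-201 and of the whole gene thus differed little.

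Ldha, whose subunit prevails in glycolytic tissues, was lowest in Ctrl and higher in the other 3 libraries. Its summed level was 91.9 FPKM in control cells and 149 FPKM with PGC-1α, and after OGD 170 FPKM in control cells and 161 FPKM with PGC-1α. The 3 higher libraries lay between 149 and 170 FPKM, whereas Ctrl stood apart below them. The log2 fold change against Ctrl was 0.69 with PGC-1α and 0.88 with OGD, and both values rest on the same Ctrl library. Where the cells already had the other treatment, the differences were small, with -0.08 for PGC-1α after OGD and 0.11 for OGD in PGC-1α cells. The higher level in PGC-1α vs Ctrl was thus not found after OGD. Whether the 2 PGC-1α effects differ was not tested, since each rests on 1 pair of libraries.

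**Figure D1:**
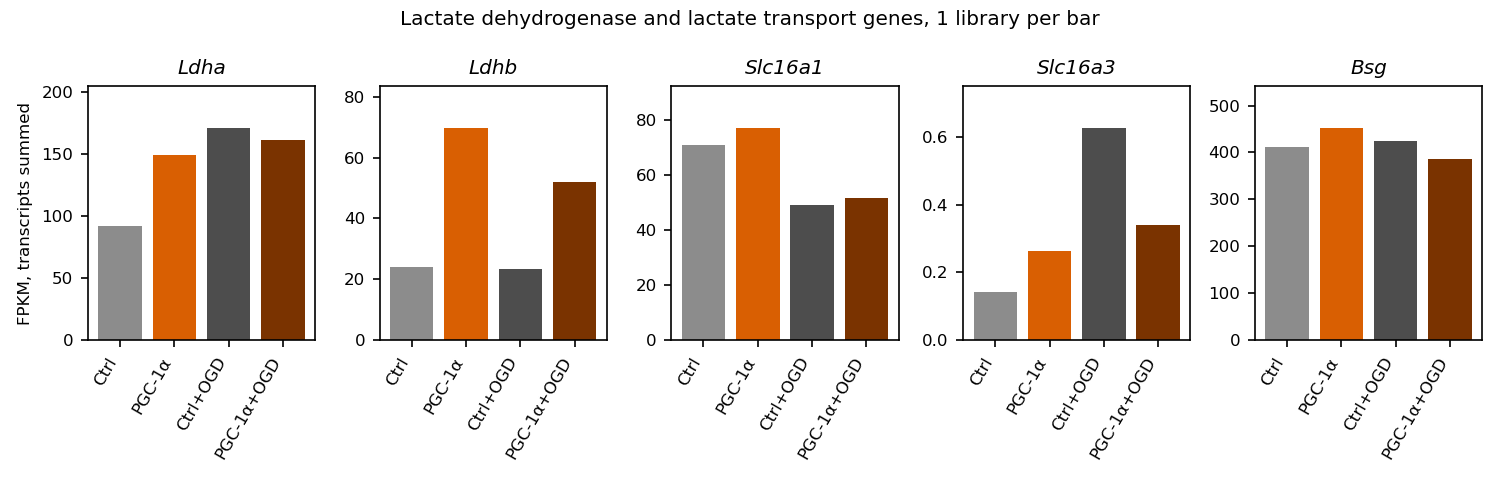
Summed FPKM (vertical axis, a separate scale for each gene, starting at 0) of the 5 members in the 4 libraries, 1 bar per library and no error bars because each group has 1 library. Ldhb is high in both PGC-1α libraries (69.7 and 51.9 FPKM), Ldha is low in Ctrl (91.9 FPKM), Slc16a1 is lower after OGD (49.3 and 51.8 FPKM), and Slc16a3 stays below 1 FPKM.

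Of the 4 members with a mean of at least 1 FPKM, Ldha and Ldhb were at least 1.5-fold higher in PGC-1α vs Ctrl and none was lower. Among all genes compared, 10.5% were past 1.5-fold in either direction, 4.91% higher and 5.63% lower. Nothing is read from the count in that comparison, because it was known when the members were chosen. With PGC-1α after OGD, 1 member was higher (Ldhb) and none was lower, where 6.90% of all genes were past 1.5-fold, 3.08% higher and 3.82% lower. With OGD in control cells, 1 member was higher (Ldha) and none was lower, where 13.9% of all genes were past 1.5-fold, 6.20% higher and 7.71% lower. With OGD in PGC-1α cells, none of the 4 members was past 1.5-fold, where 9.03% of all genes were, 3.82% higher and 5.22% lower. Counts over 4 genes are too small to set the group apart from these shares.

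The Ldhb to Ldha ratio combines these patterns. It was 0.262 in control cells and 0.467 with PGC-1α, and after OGD 0.137 in control cells and 0.322 with PGC-1α, as summed FPKM of Ldhb over summed FPKM of Ldha. Ldha exceeded Ldhb in every library, and both PGC-1α libraries had a higher ratio than both control libraries. With PGC-1α the ratio was 1.79 times as high as in Ctrl without OGD and 2.36 times as high after OGD. After OGD it was 0.522 times its value in Ctrl cells and 0.689 times its value in PGC-1α cells. In PGC-1α vs Ctrl both genes were higher, with Ldhb by the larger fold, and after OGD the change of the ratio with PGC-1α came from Ldhb, because Ldha differed little. With OGD in control cells it came from Ldha, because Ldhb differed little. Expressed as a share of both genes, Ldhb made up 20.7% in control cells and 31.8% with PGC-1α, and after OGD 12% in control cells and 24.4% with PGC-1α. The sum of both genes was 116 FPKM in Ctrl and between 194 and 219 FPKM in the other 3 libraries. These are ratios of mRNA levels and give no measure of subunits or enzyme activity.

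**Figure D2:**
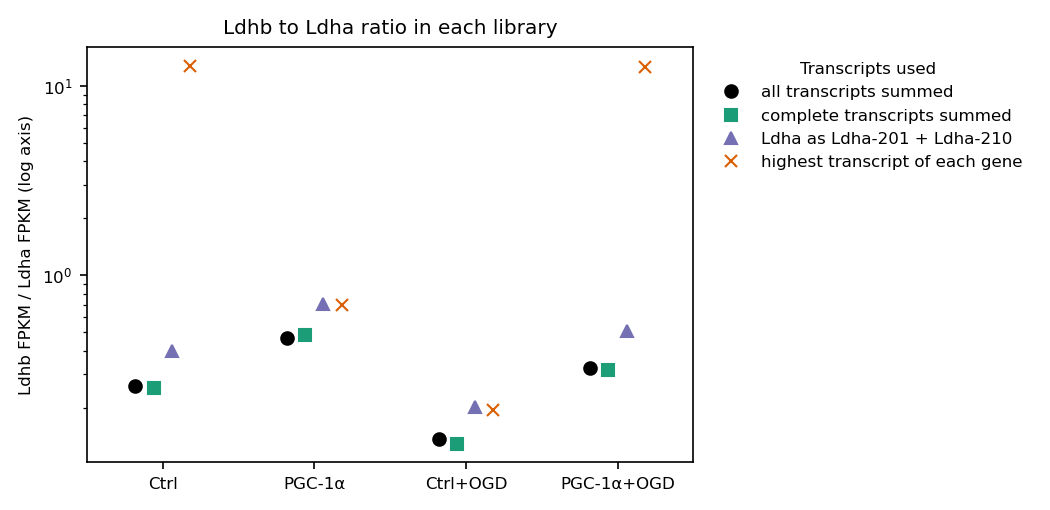
Ldhb to Ldha ratio (vertical log axis, FPKM over FPKM) in the 4 libraries, 1 point per library for each way of taking the transcripts. Summed transcripts give 0.262, 0.467, 0.137 and 0.322 in the order plotted, whereas the single transcript of each gene with the highest mean (Ldha-201 and Ldhb-201) gives 12.8 in Ctrl and 12.5 in PGC-1α+OGD against 0.698 in PGC-1α and 0.194 in Ctrl+OGD.

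The single transcripts of Ldha varied far more than their sum. The table holds 12 of the 15 annotated Ldha transcripts, and a pair from the downstream start, Ldha-201 and Ldha-210, made up 63.0% to 67.8% of the sum in each library. Ldha-201 was at 1.75 FPKM in control cells and 93.8 FPKM with PGC-1α, and after OGD 111 FPKM in control cells and 3.85 FPKM with PGC-1α. Ldha-210 was at 58.3 FPKM in control cells and 5.15 FPKM with PGC-1α, and after OGD 4.44 FPKM in control cells and 97.9 FPKM with PGC-1α. In each library 1 of the 2 transcripts held nearly all of the value, Ldha-210 in Ctrl and PGC-1α+OGD (97.1% and 96.2% of the pair) and Ldha-201 in PGC-1α and Ctrl+OGD (94.8% and 96.2%). By Ldha-201 alone, the log2 fold change with PGC-1α was 5.11 without OGD and -4.53 after it. By Ldha-210 alone, these values were -3.27 and 4.18. The sum of the pair was 60.1, 98.9, 116 and 102 FPKM for control and PGC-1α cells first without and then after OGD, which follows the order of the whole gene.

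The annotation shows how little separates the pair. All 1766 bases of Ldha-201 are contained in Ldha-210, and both have 8 exons with the same splice junctions. Ldha-210 has 49 further bases at its 5′ end, from 46847082 to 46847130 of chromosome 7, which are positions 251 to 299 of the downstream window printed above. Fragments that lie wholly in the shared bases are contained in both transcripts. The annotated coding regions also differ, since Ldha-210 is given a start codon further upstream. The coding region given to Ldha-210 is 87 bases longer (29 codons) than the 332 codons of Ldha-201 and Ldha-202, which have the same coding region. That start codon, at 46847326, lies in the first exon of both Ldha-201 and Ldha-210. The 49 further bases are thus untranslated, and all bases of the longer coding region are present in Ldha-201 as well. The part that the division of shared reads plays in the exchange was not tested.

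**Figure D3:**
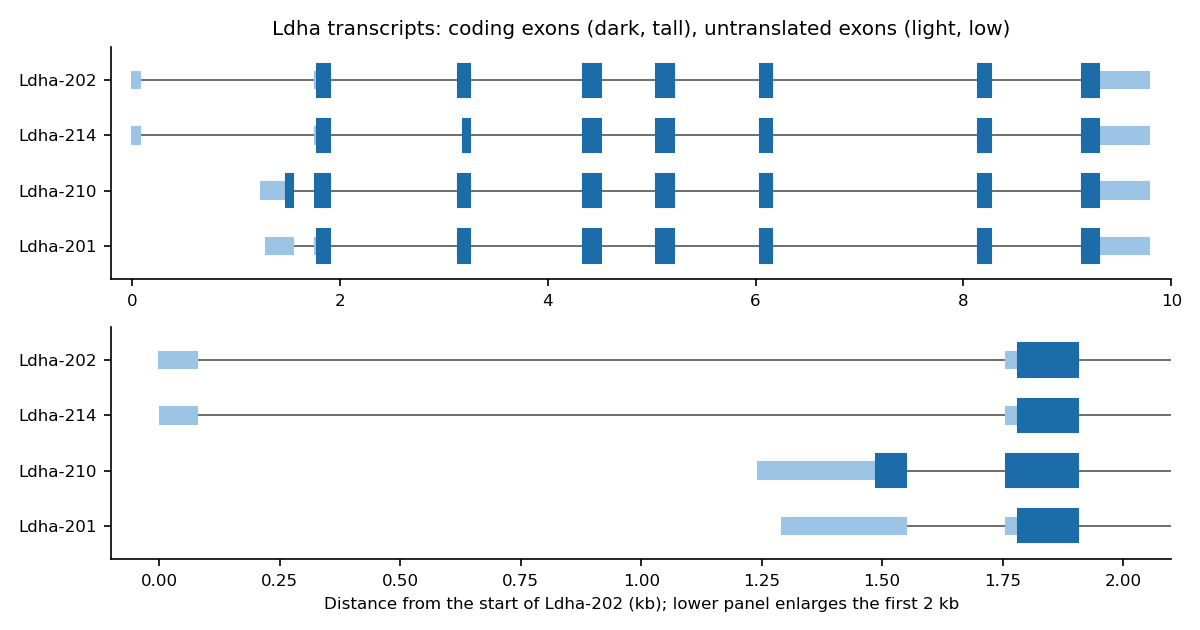
Exons of 4 Ldha transcripts against the distance from the start of Ldha-202 in kb, with coding parts dark and tall and untranslated parts light and low, and with the first 2 kb enlarged in the lower panel. Ldha-201 and Ldha-210 share all splice junctions and differ by 49 bases at the start, while Ldha-202 and Ldha-214 begin at the upstream start.

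From the upstream start, the leading transcript was Ldha-202. It was at 23.2 FPKM in control cells and 29.2 FPKM with PGC-1α, and after OGD 40.0 FPKM in control cells and 42.4 FPKM with PGC-1α. Both libraries after OGD were above both without OGD. The log2 fold change of the 6 transcripts of this start together was 0.87 with OGD in control cells and 0.49 with OGD in PGC-1α cells, and 0.38 with PGC-1α before OGD. After OGD the sum of this start was 50.8 FPKM in control cells and 50.9 FPKM with PGC-1α. The downstream pair had log2 fold changes with PGC-1α of 0.71 without OGD and -0.18 after it, and with OGD of 0.93 in control cells and 0.04 in PGC-1α cells. The upstream start held 24.1% to 31.5% of the Ldha sum, with its lowest share in PGC-1α. The 4 transcripts with other starts, Ldha-208 from further upstream among them, held 2.36% to 9.55%. Their sum was 4.50 FPKM in control cells and 14.2 FPKM with PGC-1α, and after OGD 4.01 FPKM in control cells and 8.76 FPKM with PGC-1α. The log2 fold change of this sum with PGC-1α was 1.47 without OGD and 0.96 after OGD. Ldha-202 has 1508 of its 1588 bases in common with Ldha-201. The part that the division of shared reads plays in the values of the 2 starts was not tested. Ldha-214, which lacks 17 codons of Ldha-202, was at 2.83, 5.02, 8.89 and 6.64 FPKM for control and PGC-1α cells first without and then after OGD. Ldha-206, whose annotation ends before its coding region does, was at 10.8 FPKM in PGC-1α and at most 3.62 FPKM in the other 3 libraries. The remaining transcripts with a mean of at least 1 FPKM were Ldha-213 at 1.73 to 2.66 FPKM and Ldha-207 at 0.578 to 2.48 FPKM.

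**Figure D4:**
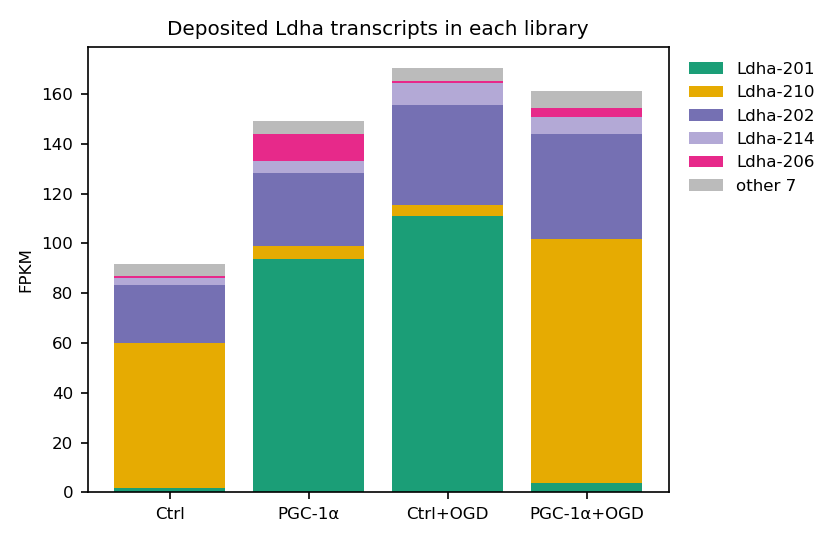
FPKM of the deposited Ldha transcripts stacked in each library, 1 bar per library, with 5 transcripts shown singly and the other 7 together. The exchange between Ldha-210 (58.3 and 97.9 FPKM in Ctrl and PGC-1α+OGD) and Ldha-201 (93.8 and 111 FPKM in PGC-1α and Ctrl+OGD) leaves the height of the bars between 91.9 and 170 FPKM.

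Slc16a1, which encodes the lactate carrier MCT1, was lower in both libraries after OGD and differed little with PGC-1α. Its only annotated transcript was at 71.0 FPKM in control cells and 77.0 FPKM with PGC-1α, and after OGD 49.3 FPKM in control cells and 51.8 FPKM with PGC-1α. Both libraries after OGD were below both without OGD. The log2 fold change with OGD was -0.52 in control cells and -0.56 in PGC-1α cells, both just short of 1.5-fold. With PGC-1α it was 0.12 without OGD and 0.07 with OGD. Relative to Ldha, the level of Slc16a1 was 0.772 in control cells and 0.517 with PGC-1α, and after OGD 0.289 in control cells and 0.321 with PGC-1α.

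Slc16a3, which encodes the lactate carrier MCT4, was hardly present. Of its 8 annotated transcripts 1 is in the table, a full-length coding one, at 0.143 FPKM in control cells and 0.263 FPKM with PGC-1α, and after OGD 0.626 FPKM in control cells and 0.339 FPKM with PGC-1α. All 4 values are under 1 FPKM and no fold change is given. Each deposited transcript reaches 0.5 FPKM in at least 1 library, and this one did so only in Ctrl+OGD, so nothing is read from the order of its values. Its mean was below the filter, so it was left out of the counts.

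Bsg, which encodes the transporter chaperone basigin, was the most abundant member and varied least. It was at 411 FPKM in control cells and 451 FPKM with PGC-1α, and after OGD 423 FPKM in control cells and 386 FPKM with PGC-1α. The highest library was 1.17 times the lowest, and the 4 log2 fold changes lay between -0.22 and 0.14. The FPKM level of Bsg was 5.79 to 8.59 times that of Slc16a1. Bsg-205 held 84.5% to 86.9% of the sum in each library. Bsg-201, which includes a coding exon of 348 bases that Bsg-205 skips and encodes the long form known from the retina, was at 10.8 to 18.4 FPKM, and Bsg-202, which starts further downstream, was at 22.9 to 33.3 FPKM. Bsg-203, annotated without a complete start, was at 3.58 FPKM in Ctrl+OGD and 17.3 to 27.6 FPKM in the other 3 libraries.

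Other members of these families were scarce. Of the other lactate dehydrogenase genes, the testis gene Ldhc was not in the table, and Ldhal6b was at 0.233 to 0.644 FPKM. Ldhd, which encodes the mitochondrial enzyme for D-lactate, was at 1.13 FPKM in control cells and 1.55 FPKM with PGC-1α, and after OGD 2.53 FPKM in control cells and 1.11 FPKM with PGC-1α. It was highest in Ctrl+OGD, with a log2 fold change of 0.73 for OGD in control cells and of -0.74 for PGC-1α after OGD. Of 15 further carriers and receptors, 5 were listed, and Slc16a7, which encodes the neuronal lactate carrier MCT2, was not among them. Slc16a6 was at 2.27 to 3.63 FPKM, Slc16a11 at 3.01 to 5.25 FPKM, Slc16a13 at 2.92 to 4.14 FPKM and Slc16a4 at 0.282 to 0.968 FPKM. Hcar1, the lactate receptor, was at 4.54 FPKM in control cells and 4.94 FPKM with PGC-1α, and after OGD 4.13 FPKM in control cells and 2.77 FPKM with PGC-1α. Its log2 fold change of -0.66 for OGD in PGC-1α cells was the only difference of summed values past 1.5-fold among the 4 of these genes that could be compared. In that comparison 9.03% of all genes were past 1.5-fold. By its highest transcript, Slc16a6 had -0.91 with PGC-1α without OGD and 1.17 with OGD in PGC-1α cells. Embigin (Emb), the alternative chaperone, was absent from the table, whereas neuroplastin (Nptn), a relative of basigin that can also escort MCT2, was at 43.1 to 43.8 FPKM in all libraries. The cyclophilin Ppia, a ligand of basigin, was at 242, 305, 348 and 369 FPKM for control and PGC-1α cells first without and then after OGD, and the cyclophilin Ppib was at 270 to 309 FPKM.

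Upstream of lactate, 17 of 19 genes from glucose uptake to pyruvate could be compared. In PGC-1α vs Ctrl, 5 of them were at least 1.5-fold higher (Hk1, Pfkl, Aldoa, Tpi1 and Pgk1) and 1 was lower (Eno2), and the median log2 fold change was 0.41, beside -0.03 over all genes. Hexokinase 1 (Hk1) was at 22.1 FPKM in control cells and 40.2 FPKM with PGC-1α (log2 fold change 0.84), and aldolase A (Aldoa) at 253 and 435 FPKM (0.78). With OGD in control cells, 6 were higher (Pfkl, Pfkfb4, Tpi1, Pgk1, Eno2 and Pkm), none was lower, and the median was 0.40, beside -0.02 over all genes. Pyruvate kinase (Pkm) was at 183 FPKM before and 277 FPKM after OGD (0.60, but 0.34 by its highest transcript), and triosephosphate isomerase (Tpi1) at 79.3 and 130 FPKM (0.71). With PGC-1α after OGD none was higher and 2 were lower, the glucose transporter Slc2a1 (19.8 and 10.6 FPKM, -0.85) and Eno2, with a median of 0.01. With OGD in PGC-1α cells, Pfkfb4 and Eno2 were higher and the median was 0.00, although Eno2 by its highest transcript was not (-0.19). Over all genes the median was -0.01 with PGC-1α after OGD and 0.00 with OGD in PGC-1α cells. Of all genes compared, 4.91% were higher and 5.63% lower in PGC-1α vs Ctrl, and 3.08% and 3.82% with PGC-1α after OGD. With OGD, 6.20% of all genes were higher and 7.71% lower in control cells, and 3.82% and 5.22% in PGC-1α cells. The 2 comparisons whose list medians were well above 0 share the Ctrl library.

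**Figure D5:**
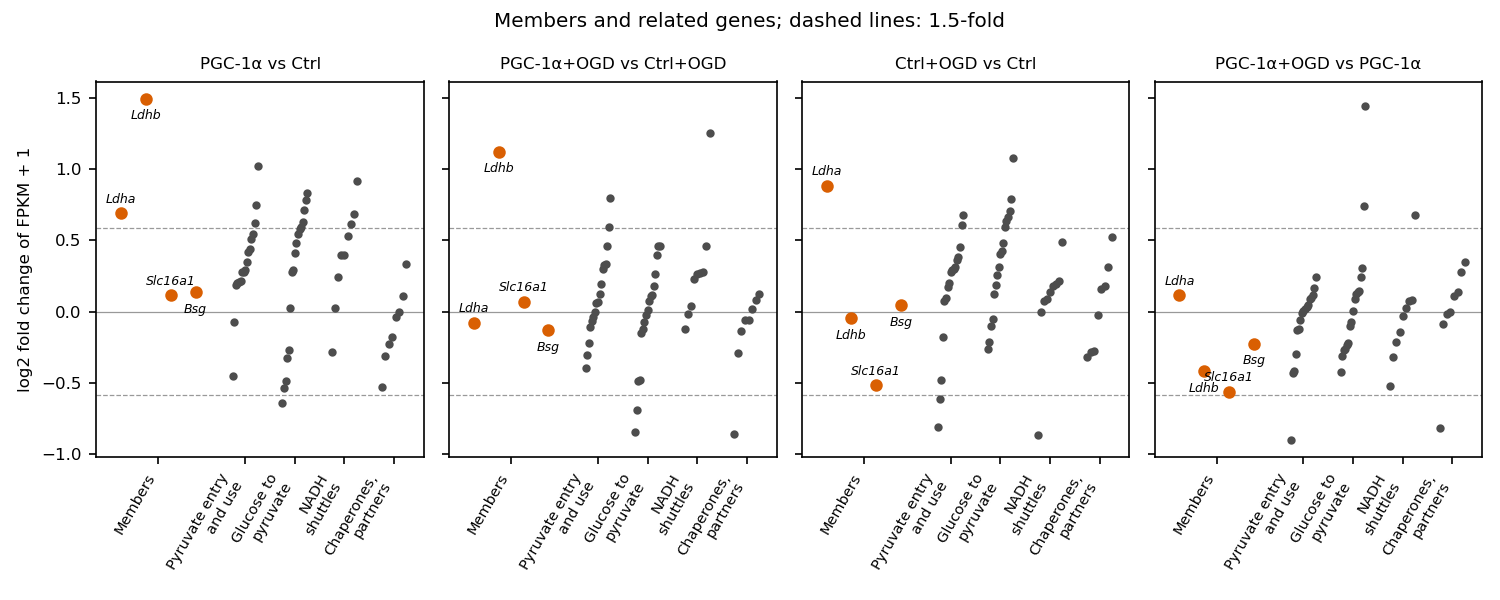
Log2 fold change of FPKM + 1 (vertical axis) in the 4 comparisons for the 4 members with a mean of at least 1 FPKM (orange, labelled) and for the genes of 4 related lists (grey, 1 point per gene, sorted by value), with dashed lines at 1.5-fold. Ldhb is above the upper line in both comparisons of PGC-1α with control (1.5 and 1.12), and Ldha only in the comparisons with Ctrl (0.69 and 0.88).

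On the side of pyruvate use, all 17 listed genes could be compared. In PGC-1α vs Ctrl, 3 were higher, the pyruvate carrier gene Mpc1 (11.8 and 18.7 FPKM, log2 fold change 0.62, but 0.11 by its highest transcript), the pyruvate dehydrogenase subunit Dlat (11.1 and 19.3 FPKM, 0.75) and the kinase Pdk4 (4.90 and 11.0 FPKM, 1.02), which inhibits that enzyme. None was lower, 15 of the 17 were above 0, and the median was 0.30. Over all genes, 4.91% were higher and 5.63% lower in that comparison, 45.8% were above 0, and the median was -0.03. With PGC-1α after OGD, Pdk4 (5.31 and 9.96 FPKM, 0.80) and Pdk2 (9.04 and 14.2 FPKM, 0.60) were higher, and the median was 0.07. Over all genes, 3.08% were higher and 3.82% lower after OGD with PGC-1α, and the median was -0.01. Pdk4 was thus, like Ldhb, high in both PGC-1α libraries. With OGD in control cells, Mpc1 (0.68, but 0.31 by its highest transcript) and the malic enzyme Me1 were higher and Pdk2 and pyruvate carboxylase (Pcx) were lower. In that comparison 13 of the 17 were above 0 and the median was 0.28, beside 48.0% above 0 and -0.02 over all genes. Of all genes, 6.20% were higher and 7.71% lower there. PGC-1α vs Ctrl and this comparison share the Ctrl library. Pcx was at 10.8 FPKM in control cells and 12.7 FPKM with PGC-1α, and after OGD 5.73 FPKM in control cells and 6.33 FPKM with PGC-1α, so that both libraries after OGD were below both without it. By summed values it was the only one of these genes past 1.5-fold with OGD in PGC-1α cells (-0.90). In PGC-1α cells with OGD, 3.82% of all genes were higher and 5.22% lower.

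The malate-aspartate and glycerol phosphate shuttles are the other means by which the cytosol recovers NAD from NADH. Of their 9 genes, Mdh1, Mdh2 and Got1 were at least 1.5-fold higher in PGC-1α vs Ctrl, none was lower, and the median was 0.40. Over all genes in that comparison, 4.91% were higher and 5.63% lower, and the median was -0.03. Got1, the cytosolic aspartate aminotransferase, was at 24.9 FPKM in control cells and 48.0 FPKM with PGC-1α, and after OGD 27.5 FPKM in control cells and 38.4 FPKM with PGC-1α. Both PGC-1α libraries lay above both control libraries, although the log2 fold change after OGD, 0.46, was short of 1.5-fold. With PGC-1α after OGD the median was 0.26, and by summed values only the aspartate-glutamate carrier Slc25a12 was past 1.5-fold (4.26 and 11.6 FPKM, 1.26). Over all genes with PGC-1α after OGD, 3.08% were higher and 3.82% lower, and the median was -0.01. Slc25a12 was lower with OGD in control cells (-0.87) and higher with OGD in PGC-1α cells (0.68).

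Among proton and bicarbonate carriers and other basigin partners, 8 of 10 genes could be compared, and Car9, the hypoxia-responsive carbonic anhydrase, was the only one whose summed value was past 1.5-fold in any comparison. It was at 38.9 FPKM in control cells and 31.2 FPKM with PGC-1α, and after OGD 32.0 FPKM in control cells and 17.2 FPKM with PGC-1α, so that the library with both treatments was the lowest (log2 fold change -0.86 with PGC-1α after OGD and -0.82 with OGD in PGC-1α cells). The other 2 comparisons had no gene of this list past 1.5-fold. Of all genes compared, 10.5% and 6.90% were past 1.5-fold with PGC-1α without and after OGD. With OGD, 13.9% were past it in control cells and 9.03% in PGC-1α cells. A count over 8 genes is too small to set the list apart from these shares. Of 15 regulator genes, 12 could be compared, Ppargc1a among them. Their median log2 fold change lay between -0.21 and 0.14 in the comparisons. Esrra, which encodes the estrogen-related receptor alpha, was at 4.73 FPKM in control cells and 8.75 FPKM with PGC-1α, and after OGD 5.13 FPKM in control cells and 7.30 FPKM with PGC-1α, again with both PGC-1α libraries above both control libraries. Its log2 fold change was 0.77 without OGD and 0.44 with OGD. Myc, an activator of Ldha and Slc16a1, was at 77.5 FPKM in control cells and 33.0 FPKM with PGC-1α, and after OGD 49.8 FPKM in control cells and 51.5 FPKM with PGC-1α. Its log2 fold change against Ctrl was -1.21 with PGC-1α and -0.63 with OGD, the latter 0.05 by its highest transcript. With OGD in PGC-1α cells Myc was higher (0.63). Hif1a, named after its values were seen, was at 61.5 to 72.2 FPKM. Egln3, a prolyl hydroxylase induced by hypoxia-inducible factor, was at 33.5 FPKM both in control cells and with PGC-1α without OGD. After OGD it was at 42.0 FPKM in control cells and 23.5 FPKM with PGC-1α. Its log2 fold change with PGC-1α was 0.001 without OGD and -0.81 after OGD.

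Genes with the most similar pattern over the 4 libraries were sought for each member by the Euclidean distance between profiles of log2(FPKM + 1), each centred on its own mean. The nearest to Ldhb were Pygm, the muscle glycogen phosphorylase (distance 0.0914), Ndufaf4, an assembly factor of complex I (0.133), and Zbtb41 (0.184). Only 3 genes lay within 0.2 of Ldhb, whereas 91 lay within 0.2 of Ldha and 1411 within 0.2 of Bsg. The nearest to Ldha were Gm3435, Lmnb2 and Sumo3 (0.0257 to 0.0660), those near Slc16a1 included Trim12c (0.0560) and Cacng7 (0.0583), and the nearest to Bsg were Abhd8, Rad1 and Gstt3 (0.0200 to 0.0233). Those of Slc16a3 were Thrap3, Pcbp3 and Prpsap2 (0.00632 to 0.0409). The Slc16a3 values were under 1 FPKM, where this scale shrinks differences, so nothing is read from these neighbours. Gm3435, the nearest to Ldha, was also low, at 0.645 to 2.04 FPKM. Distances over 4 libraries describe these libraries, and a member with small differences has many near neighbours.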

How the data were processed

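Gene expression was measured in HT-22 cells with 1 library in each of 4 groups, and groups were taken from the sample records. Per the labels and the study's methods, poly(A) RNA was prepared with a stranded kit, sequenced from both ends and aligned with HISAT2 2.1.0 to GRCm38. The authors deposited 1 value per Ensembl transcript, taken here as FPKM because the values are never negative and have unequal totals, below what TPM would sum to. The program and annotation behind the values are not given in the sources used here, and every transcript reached 0.500 in at least 1 library. Whole reads could not be recovered, since at most 25.1% of low length-scaled values lay within 0.1 of whole steps, where 20% is the chance level. Depth and counting error are therefore unknown.

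Transcripts were matched by identifier without version to GENCODE release M21 (25822 matched, 67 left out). Deposited transcripts were summed per gene, genes whose mean reached 1 FPKM were compared without further scaling, and log2(FPKM + 1) was subtracted between libraries. Summing was used because the highest transcript changed between libraries for Ldha. Members, lists and the choice of summing were made with earlier results of these data known. The genes named are the members, every listed carrier, receptor, lactate dehydrogenase and chaperone gene, genes of the other lists that were past 1.5-fold or among the 3 largest differences, and the 3 nearest profiles per member, of which 1 is not reported here. Alternatives were pseudocounts of 0.1 and 0.01, no filter, a mean of 5 or more, scaling by the median ratio or the upper quartile, the highest transcript, protein-coding transcripts, a fold of 2, a ratio of sums plus 1 and, added after the data were seen, complete transcripts and Ldha-201 with Ldha-210 only. Reads shared with Ldha pseudogenes could not be separated. Tools were pandas 2.3.3 and numpy 2.4.6 under Python 3.11.15, with plots from matplotlib 3.10.9, and the calculation was tested on simulated data.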

Additional observations from a re-analysis of the deposited data

Results flagged for a closer look

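Some effects had opposite signs in the 2 settings of the same contrast. These differences were not tested, since each effect rests on 2 libraries.

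For the PGC-1α effect, the log2 fold change of summed Ldha was 0.69 without OGD and -0.08 with OGD, and that of Bsg was 0.14 and -0.13. For the OGD effect, the log2 fold change of Bsg was 0.043 in Ctrl cells and -0.22 in PGC-1α cells. All of these except Ldha without OGD were short of 1.5-fold.

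The transcript Ldha-201 had log2 fold changes with PGC-1α of 5.11 without OGD and -4.53 with OGD, and those of Ldha-210 were -3.27 and 4.18. With OGD, Ldha-201 had 5.35 in Ctrl cells and -4.29 in PGC-1α cells, and Ldha-210 had -3.45 and 4.01. The sum of both transcripts had log2 fold changes between -0.18 and 0.93 in the 4 comparisons.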

How the results depend on the processing

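Both scalings, both pseudocounts, protein-coding transcripts, complete transcripts and, for the counts, no filter left every fold change of Ldha, Ldhb, Slc16a1 and Bsg and every count on the same side of 1.5-fold or within 1.5 times of its value, and no scaling moved the median of all genes by over 0.1. The ratio of sums plus 1 also kept each ratio and change. All deposited transcripts of the members are of protein-coding type, so the protein-coding setting could not change their fold changes or ratios. With the highest transcript in place of the sum, Ldha gave log2 fold changes of -4.53 with PGC-1α after OGD and -4.29 with OGD in PGC-1α cells, the latter against 0.11. The Ldhb to Ldha ratio then became 12.8 in Ctrl and 12.5 in PGC-1α+OGD, and its log2 changes reversed to -4.19 with PGC-1α before OGD and 4.17 with OGD in PGC-1α cells. Here the exchange of Ldha-201 and Ldha-210 is by construction the source, because Ldha-201 alone stood for the gene. With Ldha-201 and Ldha-210 alone as Ldha, the ratio was 0.400 in Ctrl, 0.704 in PGC-1α and 0.511 in PGC-1α+OGD. With complete transcripts only, the log2 change of the ratio with OGD in PGC-1α cells was -0.62, past 1.5-fold. At 2-fold, Ldha was no longer counted against Ctrl, with PGC-1α (0.69) or with OGD (0.88), whereas Ldhb still was in both PGC-1α comparisons.

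In the order PGC-1α without OGD, PGC-1α after OGD, OGD in control cells and OGD in PGC-1α cells, 1118, 732, 1475 and 958 of all genes were past 1.5-fold, and 318, 222, 364 and 303 were past 2-fold. The shares of all genes past 1.5-fold were 10.5%, 6.90%, 13.9% and 9.03%. Of the 68 related genes on the lists that could be compared, 15, 9, 14 and 8 were past 1.5-fold, and 3, 2, 1 and 2 past 2-fold. Each count at 1.5-fold includes Ppargc1a, the overexpressed gene. With a mean of at least 5, fewer genes were compared. Then 731, 433 and 570 genes were counted in the first, second and last comparison, and 5 related genes in the last. Shares of the genes compared with that filter were not computed. By the highest transcript, 1785, 1364 and 1690 of all genes were counted in the first, second and last. No paired analysis was possible because each group has 1 library, and no library could be left out for the same reason.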

Other observations

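A change of the leading transcript between libraries was not particular to Ldha. Of the 6405 genes with 2 or more deposited transcripts and a mean of at least 1 FPKM, 2147 (33.5%) did not have the same leading transcript in all 4 libraries. This count takes any change of the leading transcript, however small the difference. It does not show how common an exchange as complete as that of Ldha-201 and Ldha-210 is. Among the members with 2 or more transcripts, Ldhb and Bsg each kept 1 leading transcript throughout, and Ldha did not.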
